A study of Arabidopsis thaliana with 12 samples.

Results

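The 8 genes described here code for parts of the plant cap-binding machinery other than the cap-binding protein itself. They are EIF4G (AT3G60240), EIFISO4G1 (AT5G57870) and EIFISO4G2 (AT2G24050), which code for the scaffolds, EIF4A1 (AT3G13920), EIF4A-2 (AT1G54270) and AT1G72730, which code for eIF4A helicases, and EIF4B1 (AT3G26400) and EIF4B2 (AT1G13020), which code for eIF4B. They were chosen by listing these identifiers and taking the rows that carry them, 8 of the 25835 genes in the tables. All 8 passed the filter on low values and were among the 19170 genes tested.

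The scaffold eIF4G binds eIF4E, which holds the mRNA cap, and eIF4A, an RNA helicase of the DEAD-box family that opens structure in the 5′ leader. eIF4B stimulates the helicase. Flowering plants carry a second form of the complex, in which a smaller scaffold, eIFiso4G, pairs with the cap-binding protein eIFiso4E, and both forms share the helicase and eIF4B.

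The plants were Arabidopsis thaliana seedlings of the Columbia ecotype, 9 days old, grown at 22 °C in 16 h light and 8 h dark and frozen whole at ZT16, just before the lights went off. The 4 groups of 3 libraries were ribosome-bound mRNA of an eif4e mutant, ribosome-bound mRNA of wild type, total mRNA of the mutant and total mRNA of wild type. The allele of the mutant, and whether the plants of either genotype carried a tagged ribosomal protein for the immunopurification of ribosomes, are not given in the sources used here. The labels do not say that the 3 libraries of a group came from separate cultures, so each p-value measures the spread between these libraries, which may be technical.

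The tables hold 20083555 to 22034288 counts a library in ribosome-bound mutant samples and 18585324 to 24673644 in ribosome-bound wild type samples. Total mRNA libraries hold 17058704 to 19973299 counts in the mutant and 21707431 to 22539336 in wild type. EIF4E itself, the gene the mutant is named for, had 12.3, 11.6 and 13.9 FPKM in ribosome-bound mutant libraries, against 71.8, 92.9 and 87.2 FPKM in ribosome-bound wild type libraries. In total mRNA it had 8.28, 24.2 and 8.29 FPKM in the mutant, against 44.0 to 45.8 FPKM in wild type. Every mutant library was below every wild type library, and replicate 2 of total mutant mRNA stood apart from the other two.

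FPKM, fragments scaled to gene length and library total, allows levels of different genes to be compared. In total mRNA the order of the mean levels was EIF4A1, EIF4A-2, EIFISO4G1, EIF4G, EIF4B2, EIF4B1, EIFISO4G2 and AT1G72730 in both genotypes, and no gene's libraries overlapped those of the next. EIF4A1 averaged 200 ± 8.93 FPKM in mutant total mRNA and 182 ± 5.18 FPKM in wild type total mRNA (SD, n = 3 each). AT1G72730 stood at the other end, with 6.98 ± 0.361 FPKM in mutant total mRNA and 8.43 ± 0.324 FPKM in wild type total mRNA (SD, n = 3 each). On ribosomes the order was the same at both ends, but EIF4B2, EIF4B1 and EIF4G overlapped each other, with mean levels between 12.7 and 14.4 FPKM in the 2 genotypes.

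**Figure D1:**
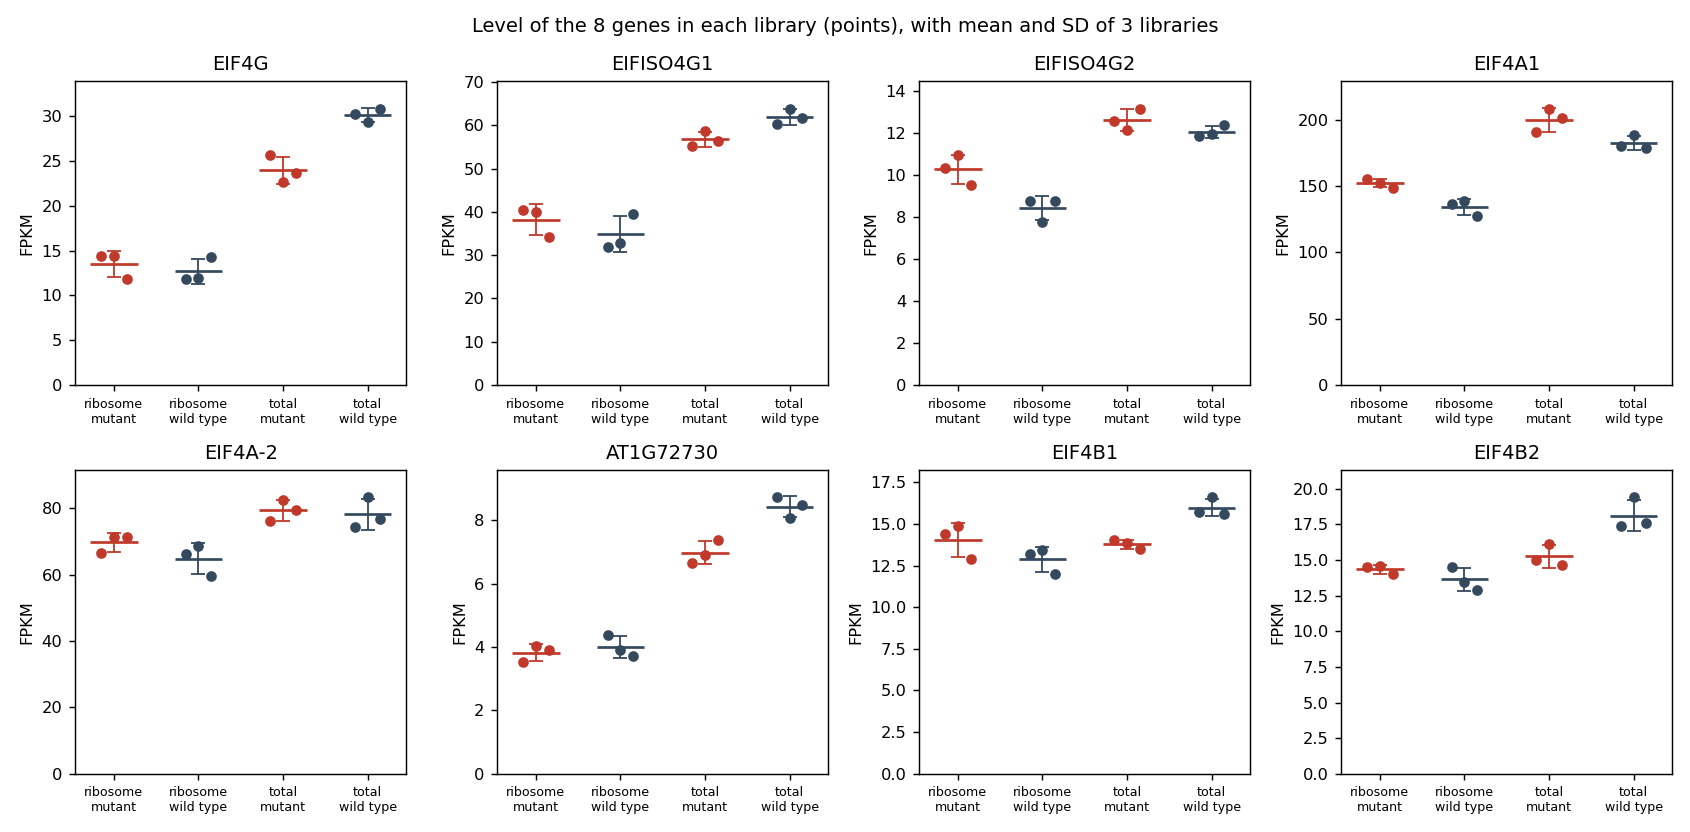
Levels of the 8 genes in FPKM (vertical axes, from 0, each with its own scale) in the 4 groups. Points are libraries, horizontal bars the mean and error bars the SD of 3 libraries. EIF4G lies at 11.8 to 14.4 FPKM in all ribosome-bound libraries, against 22.6 to 30.8 FPKM in total mRNA libraries.

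The first question was which of these genes differed between mutant and wild type. In each kind of mRNA the same 2 members rose in the mutant, EIFISO4G2 and EIF4A1, and none fell, by edgeR's quasi-likelihood test at a Benjamini-Hochberg adjusted p under 0.05. The calls in ribosome-bound mRNA stand against 27.3% of all tested genes called, 15.4% higher and 12% lower. Those in total mRNA stand against 17% called, 10.4% higher and 6.54% lower. The median log2 change of the 8 genes was 0.16 in ribosome-bound mRNA, against 0.01 over all tested genes, and -0.04 in total mRNA, against -0.00 over all tested genes. Over all genes the change on ribosomes rose with gene length, with medians of -0.22 under 1000 bases and 0.32 at 5000 bases or more. The shortest member has 1667 bases, and its length class of 1500 to 2000 bases had a median of 0.05. The median of the 8 was not corrected for length.

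Scaling bears on every small change in total mRNA. The normalization factors (TMM, which equalises the bulk of genes between libraries) were 0.990 to 0.992 in mutant total mRNA and 1.05 to 1.09 in wild type total mRNA, so FPKM, which lacks them, sits lower in the mutant than the scaled values do. With library size alone the median of all genes moved to -0.11 (log2), and the genes called in total mRNA moved to 1022 higher and 3034 lower, against 2001 and 1253 with TMM. The same change gave 2118 higher and 2673 lower in ribosome-bound mRNA, against 2943 and 2293 with TMM. With same-numbered libraries as blocks the calls were 3225 higher and 2879 lower in total mRNA and 4006 and 3908 in ribosome-bound mRNA.

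These are whole seedlings, in which fewer cells of a type and less RNA per cell cannot be told apart. Summed over 5 root markers, the level was 9.53 to 11.2 FPKM in ribosome-bound mutant mRNA, against 18.2 to 19.6 FPKM in wild type; in total mRNA it was 36.9 to 65.6 FPKM in the mutant, against 83.5 to 93.0 FPKM in wild type. For 5 mesophyll markers the summed level was 17563 to 23179 FPKM in ribosome-bound mutant mRNA, against 13688 to 17885 FPKM in wild type; in total mRNA it was 14291 to 16704 FPKM in the mutant, against 9501 to 10719 FPKM in wild type. Markers of dividing cells summed to 29.3 to 41.1 FPKM in ribosome-bound mutant mRNA, against 53.6 to 58.2 FPKM in wild type; in total mRNA the sum was 28 to 37.4 FPKM in the mutant, against 48.4 to 53.5 FPKM in wild type. Guard-cell and phloem lists differed less, and no marker was at 0 in all libraries of a group. The part of this tissue balance in the results on the 8 genes was not tested.

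EIFISO4G2, the less abundant of the eIFiso4G transcripts, had 10.3, 10.9 and 9.55 FPKM in ribosome-bound mutant libraries, against 8.75, 7.76 and 8.76 FPKM in wild type. All 3 mutant libraries were above all 3 wild type libraries. The log2 change was 0.33 ± 0.062 (SE), with an adjusted p of 0.0044 by edgeR's quasi-likelihood test, and same-numbered pairs differed by 0.29, 0.48 and 0.22. After a correction for gene length it was 0.16 and not past the threshold (adjusted p 0.0639). In total mRNA it had 12.6, 12.1 and 13.2 FPKM in the mutant, against 11.8, 12 and 12.4 FPKM in wild type. The FPKM ranges overlapped, while on the TMM scale all mutant libraries were above all wild type libraries. The log2 change there was 0.20 ± 0.061 with an adjusted p of 0.0485 by the same test, and the call was lost when any 1 of the 12 libraries was left out (adjusted p of 0.0505 to 0.162), except for ribosome-bound wild type 2. It was also lost under RLE scaling, both other filters, DESeq2, limma and the fit of only the groups compared, and with library size alone the log2 change was 0.085 (adjusted p 0.406).

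EIF4G, the full-length scaffold that pairs with eIF4E, had 25.6, 22.6 and 23.6 FPKM in mutant total mRNA, against 30.2, 29.3 and 30.8 FPKM in wild type. All mutant libraries were lower, on the FPKM and on the TMM scale. The log2 change was -0.20 ± 0.088 (95% interval -0.39 to -0.01), and its adjusted p of 0.136 by edgeR's quasi-likelihood test missed the threshold. It was called lower with library size alone (-0.31, adjusted p 0.0420) and by limma on log2(FPKM + 1) (-0.32, adjusted p 0.0286). Over the 208 genes of 5000 bases or more, the length class of EIF4G, the median log2 change in total mRNA was -0.17 in edgeR. On ribosomes EIF4G had 14.4, 14.3 and 11.8 FPKM in the mutant, against 11.9, 11.9 and 14.3 FPKM in wild type. The groups overlapped, since the third pair ran against the other two, with log2 differences of 0.33, 0.26 and -0.18. The log2 change of 0.14 ± 0.089 (95% interval -0.06 to 0.33) was not past the threshold (edgeR adjusted p of 0.268).

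EIFISO4G1, the more abundant eIFiso4G transcript, had the same pattern over the pairs on ribosomes as EIF4G. It had 40.5, 40.0 and 34.1 FPKM in ribosome-bound mutant libraries, against 32.0, 32.9 and 39.5 FPKM in wild type, and the pairs differed by 0.40, 0.27 and -0.12 (log2). The groups overlapped. The log2 change was 0.18 ± 0.085 (95% interval -0.01 to 0.37, edgeR adjusted p of 0.138). Without ribosome-bound wild type 3 it was 0.28 and past the threshold (adjusted p 0.0217). Over the 1210 genes of 2500 to 3000 bases, the length class of EIFISO4G1, the median log2 change was 0.16. With a correction for gene length the sign of the EIFISO4G1 change turned, as given below. In total mRNA it averaged 56.8 ± 1.71 FPKM in the mutant and 61.9 ± 1.83 FPKM in wild type (SD, n = 3 each), without overlap. On the TMM scale those groups overlapped, and the log2 change was 0.00 ± 0.085 (95% interval -0.18 to 0.19), with a sign that depends on the scaling (-0.011 with RLE scaling and -0.11 with library size alone).

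Among the helicase genes, EIF4A1, the most abundant of the 8, had 155, 152 and 149 FPKM in ribosome-bound mutant libraries, against 137, 139 and 128 FPKM in wild type. In total mRNA it had 191, 208 and 201 FPKM in the mutant, against 180, 188 and 179 FPKM in wild type. All mutant libraries were above all wild type libraries in both kinds of mRNA. The log2 change was 0.22 ± 0.063 on ribosomes (adjusted p 0.0254) and 0.26 ± 0.063 in total mRNA (adjusted p 0.0185), both by edgeR's quasi-likelihood test. The call on ribosomes was lost, at an adjusted p of 0.0558 to 0.0792, without ribosome-bound mutant 1 or without replicate 1 or 3 of ribosome-bound wild type. That in total mRNA was lost without total wild type 1, total wild type 3, total mutant 2 or total mutant 3 (0.0515 to 0.0725) and with library size alone (0.15, adjusted p 0.0910) or limma on log2(FPKM + 1) (0.13, adjusted p 0.113). With only the ribosome-bound groups in the fit, the call on ribosomes was also lost (adjusted p 0.0978), as it was after a correction for gene length (0.14, adjusted p 0.124).

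EIF4A-2 codes for a close paralog of EIF4A1, and the sources used here do not say how reads shared by the 2 genes were assigned, so the split between them is uncertain. It averaged 69.7 ± 2.86 FPKM on ribosomes in the mutant and 64.9 ± 4.74 FPKM in wild type (SD, n = 3 each). Its total mRNA averaged 79.4 ± 3.18 FPKM in the mutant and 78.2 ± 4.66 FPKM in wild type (SD, n = 3 each). Its groups overlapped in both kinds of mRNA. The log2 change was 0.15 in each, with 95% intervals of -0.02 to 0.32, which hold both 0 and the changes measured for EIF4A1.

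AT1G72730, the least abundant of the helicase genes, had 6.65, 6.92 and 7.36 FPKM in mutant total mRNA, against 8.72, 8.08 and 8.49 FPKM in wild type. The mutant libraries were lower without overlap, yet the log2 change of -0.14 ± 0.085 (95% interval -0.33 to 0.04) missed the threshold (edgeR adjusted p of 0.258). By limma on log2(FPKM + 1) it was called lower (-0.24, adjusted p 0.0380). On ribosomes it averaged 3.82 ± 0.261 FPKM in the mutant and 4.00 ± 0.352 FPKM in wild type (SD, n = 3 each). The groups overlapped there, with a log2 change of -0.02 (95% interval -0.22 to 0.18). How reads that AT1G72730 may share with the other helicase genes were assigned is likewise not given.

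Neither eIF4B gene passed the threshold in either kind of mRNA. EIF4B1 had 14.4, 14.9 and 12.9 FPKM on ribosomes in the mutant, against 13.2, 13.4 and 12 FPKM in wild type. Its total mRNA level was 14, 13.9 and 13.5 FPKM in the mutant, against 15.7, 16.6 and 15.6 FPKM in wild type. Total mutant libraries were lower without overlap in FPKM and ribosome-bound libraries overlapped, while on the TMM scale total libraries overlapped and ribosome-bound mutant libraries were higher without overlap. Its log2 change was 0.17 ± 0.067 on ribosomes (edgeR adjusted p of 0.0803; 0.0372, past the threshold, with same-numbered libraries as blocks) and -0.09 ± 0.066 in total mRNA (adjusted p 0.395). Without ribosome-bound mutant 3 the ribosome-bound value was 0.22 and past the threshold (adjusted p 0.0436). EIF4B2 averaged 14.4 ± 0.310 FPKM on ribosomes in the mutant and 13.6 ± 0.827 FPKM in wild type (SD, n = 3 each). Its total mRNA averaged 15.3 ± 0.799 FPKM in the mutant and 18.1 ± 1.11 FPKM in wild type (SD, n = 3 each). Its log2 change was 0.12 (95% interval -0.04 to 0.28) on ribosomes and -0.12 (95% interval -0.28 to 0.04) in total mRNA, and -0.0030 on ribosomes after a correction for gene length. Its overlaps in FPKM and on the TMM scale were those of EIF4B1. With library size alone EIF4B2 was called lower in total mRNA (-0.23, adjusted p 0.0366). Limma on log2(FPKM + 1) called both lower there, EIF4B1 by -0.20 (adjusted p 0.0487) and EIF4B2 by -0.23 (adjusted p 0.0281).

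**Figure D2:**
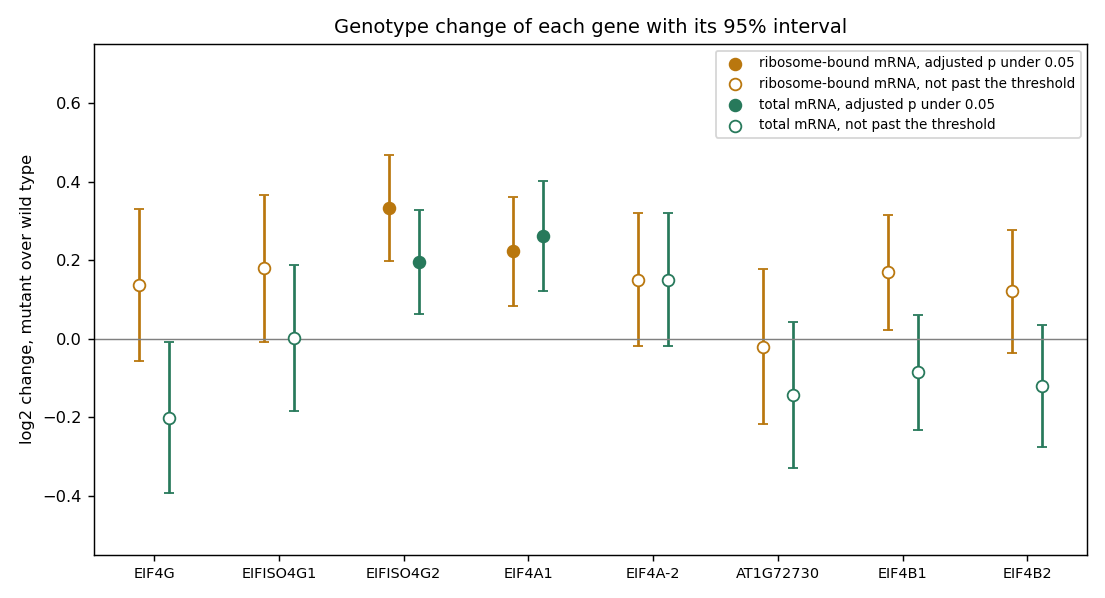
Log2 change of each gene, mutant over wild type, with its 95% interval from edgeR, in ribosome-bound and in total mRNA. Filled points passed an adjusted p under 0.05: EIFISO4G2 (0.33 and 0.20) and EIF4A1 (0.22 and 0.26).

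A second question was whether the genotype change differed between ribosome-bound and total mRNA. No member passed the test of that difference (0 of 8, against 4.03% of all tested genes, 1.67% higher and 2.35% lower), and DESeq2 also called 0. The lowest p-values among the members were those of EIF4G at 0.34 ± 0.12 (p 0.020, adjusted p 0.153 by edgeR), EIF4B1 at 0.25 ± 0.094 (p 0.0203, adjusted p 0.153 by edgeR) and EIF4B2 at 0.24 ± 0.10 (p 0.0355, adjusted p 0.208 by edgeR). The share of all tested genes with unadjusted p-values this low was not counted. The other log2 differences lay between -0.04 for EIF4A1 and 0.18 for EIFISO4G1. With same-numbered libraries as blocks the call count stayed at 0 and EIF4G had an adjusted p of 0.0921, while all tested genes gave 875 higher and 1062 lower calls in place of 321 and 451. With library size alone they gave 566 and 324.

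This difference moved with gene length across the whole data set, which touches the longest member. The median log2 difference was -0.26 over 4524 genes under 1000 bases, 0.03 over 4534 genes of 1500 to 2000 bases and 0.50 over 208 genes of 5000 bases or more. EIF4G, at 5536 bases, lay below the median of its length class. After a correction for length in each library, its log2 difference was -0.12, and its mutant change on ribosomes turned to -0.17 with an adjusted p of 0.0408 in edgeR. Under that correction the ribosome-bound changes of EIFISO4G2 and EIF4A1 were no longer called, as given above, and the total mRNA changes of both were (0.23, adjusted p 0.0163, and 0.25, adjusted p 0.0186). What the length trend reflects was not tested.

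The third comparison set ribosome-bound against total mRNA within each genotype. Tissue markers also differed between these kinds of mRNA. All 5 root markers were called lower on ribosomes in both genotypes, with median log2 changes of -2.69 in the mutant and -2.57 in wild type. Of the 3 phloem markers, 3 were called higher in the mutant and 2 in wild type. The part of tissue in the results on the 8 genes was not tested. The 3 scaffold transcripts, EIF4A1 and AT1G72730 were called lower on ribosomes than in total mRNA in both genotypes, and the eIF4B transcripts in wild type alone. In the mutant 5 of the 8 genes were lower on ribosomes and none higher, against 58.4% of all tested genes called, 29.1% higher and 29.3% lower. In wild type 7 were lower and none higher, against 67.5% called, 33.8% higher and 33.6% lower. The median log2 change of the 8 was -0.31 in the mutant, against -0.01 over all tested genes, and -0.36 in wild type, against 0.00 over all tested genes. With a correction for gene length, given below, 2 members were called higher in each genotype. Then 2 were called lower in the mutant and 1 in wild type.

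Without the length correction, EIF4G had the lowest log2 change of the 8 in wild type, at -1.13 ± 0.089 (edgeR adjusted p of 7.4e-07). It had 11.9 to 14.3 FPKM on ribosomes there, against 29.3 to 30.8 FPKM in total mRNA. In the mutant its change was -0.79 ± 0.089 (edgeR adjusted p of 2.0e-05). EIFISO4G1 changed by -0.54 ± 0.085 in the mutant and -0.71 ± 0.085 in wild type, and EIFISO4G2 by -0.26 ± 0.061 and -0.40 ± 0.061, with adjusted p of at most 0.0031 in edgeR. The order of the 3 scaffolds was that of their lengths, 5536, 2948 and 2701 bases. No ribosome-bound library of a scaffold gene overlapped the total mRNA libraries of its genotype. Such lack of overlap was not counted over all tested genes, of which 58.4% in the mutant and 67.5% in wild type were called.

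AT1G72730, at 1667 bases, stood apart from the other helicase genes. Its log2 change was -0.83 ± 0.088 in the mutant (edgeR adjusted p of 1.4e-05) and -0.95 ± 0.087 in wild type (edgeR adjusted p of 2.1e-06), against medians of -0.10 and -0.13 over the genes of 1500 to 2000 bases. EIF4A1, at 1845 bases, changed by -0.36 ± 0.063 in the mutant and -0.32 ± 0.063 in wild type, and EIF4A-2, at 1759 bases, by -0.15 in each genotype (95% intervals -0.32 to 0.02) without a call. With library size alone, which moved the median of all genes in wild type to -0.12, EIF4A-2 was called lower at -0.20 in the mutant (adjusted p 0.0327) and -0.27 in wild type (adjusted p 0.0051). The differences between these genes within a comparison were not tested.

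EIF4B1 and EIF4B2 were lower on ribosomes in wild type, by -0.19 ± 0.066 (edgeR adjusted p of 0.0225) and -0.29 ± 0.071 (edgeR adjusted p of 0.0032). With the length correction neither was called in wild type (-0.11, adjusted p 0.180, for EIF4B1 and 0.086, adjusted p 0.355, for EIF4B2). In the mutant they had log2 changes of 0.06 (95% interval -0.09 to 0.21) and -0.05 (95% interval -0.21 to 0.10), with no call. The wild type call of EIF4B1 was lost without total wild type 2 (adjusted p 0.0953) or ribosome-bound wild type 3 (0.0865), with no filter (0.0528) and with only the wild type groups in the fit (0.0835).

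**Figure D3:**
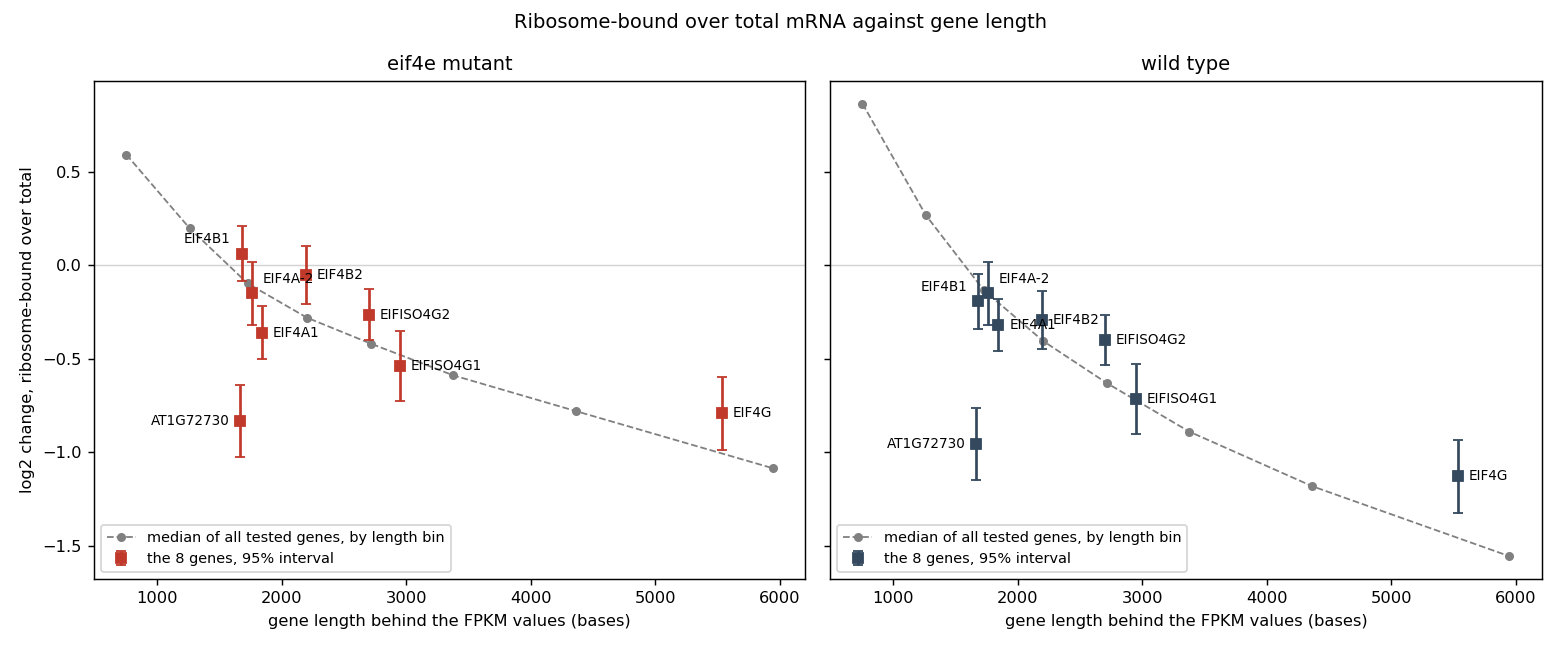
Log2 change of ribosome-bound over total mRNA (vertical axis) against the gene length behind the FPKM values in bases (horizontal axis), in the mutant and in wild type. Squares are the 8 genes with 95% intervals, and grey points joined by dashes are medians of all tested genes by length class. AT1G72730 lies at -0.83 in the mutant and -0.95 in wild type, where the medians of its length class are -0.10 and -0.13.

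Longer genes were lower on ribosomes in general. In the mutant the median log2 change fell to -1.09 over the 208 genes of 5000 bases or more, against 0.59 over the 4524 genes under 1000 bases, and in wild type to -1.56, against 0.86. Corrected for length, EIF4G was higher on ribosomes, by 0.19 in the mutant (edgeR adjusted p of 0.0110) and 0.31 in wild type (edgeR adjusted p of 6.0e-04). EIFISO4G1 then had changes of -0.07 and -0.01 with no call, and EIFISO4G2 0.14 in the mutant (edgeR adjusted p of 0.0616) and 0.21 in wild type (edgeR adjusted p of 0.0101). EIF4B2 was higher in the mutant (0.20, edgeR adjusted p of 0.0446) and no longer called in wild type. EIF4A1 was lower in the mutant (-0.24, edgeR adjusted p of 0.0090) and lost its call in wild type (-0.13, edgeR adjusted p of 0.0979), as did EIF4B1. AT1G72730 was lower in both, at -0.79 in the mutant and -0.88 in wild type.

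The balance within each family does not depend on library scaling. EIF4G made up 21.8 ± 0.426% of the summed scaffold FPKM on ribosomes in the mutant and 22.7 ± 0.138% in wild type, and 25.7 ± 1.62% in mutant total mRNA and 28.9 ± 0.914% in wild type total mRNA (SD, n = 3 each). In all 4 comparisons of this share the groups did not overlap, with EIF4G lower in the mutant and lower on ribosomes. The shares were not corrected for gene length. In wild type the median log2 change on ribosomes against total mRNA was -1.56 over genes of 5000 bases or more, the class of EIF4G. It was -0.63 over genes of 2500 to 3000 bases, the class of the other scaffolds. For mutant against wild type these medians were -0.17 and -0.05 in total mRNA, but 0.32 and 0.16 on ribosomes. The part of length in these shares was not tested. EIFISO4G1 held the largest share, with means of 62.2% in wild type ribosome-bound mRNA and 59.5% in wild type total mRNA, the highest and lowest of the 4 groups. EIFISO4G2 held 13.5 ± 0.571% in mutant total mRNA and 11.6 ± 0.207% in wild type total mRNA (SD, n = 3 each).

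EIF4A1 made up 67.4 ± 1.33% of the summed helicase FPKM on ribosomes in the mutant and 66.2 ± 0.617% in wild type, with overlap, and 69.8 ± 0.127% in mutant total mRNA and 67.8 ± 0.567% in wild type total mRNA, without overlap (SD, n = 3 each). AT1G72730 held 1.69 to 3.14% in the 4 groups. These helicase shares carry the limit on shared reads given above. EIF4B1 and EIF4B2 split the eIF4B sum nearly evenly, with 46.9 to 49.4% for EIF4B1. The 3 helicase genes together had 3.07 ± 0.134 times the FPKM of the 3 scaffold genes in mutant total mRNA and 2.58 ± 0.0731 times in wild type total mRNA, without overlap (SD, n = 3 each). On ribosomes the ratio was 3.66 ± 0.331 in the mutant and 3.67 ± 0.542 in wild type. The third library of each genotype stood apart there, at 4.04 in the mutant and 3.05 in wild type. This ratio was not corrected for gene length either, and the helicase genes are shorter than the scaffold genes.

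Across 16 exact two-sided permutation tests of these shares and ratios the smallest p that 3 against 3 libraries allow is 0.1, so none could pass 0.05, and 11 reached 0.1 (adjusted p of 0.145 over the 16).

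**Figure D4:**
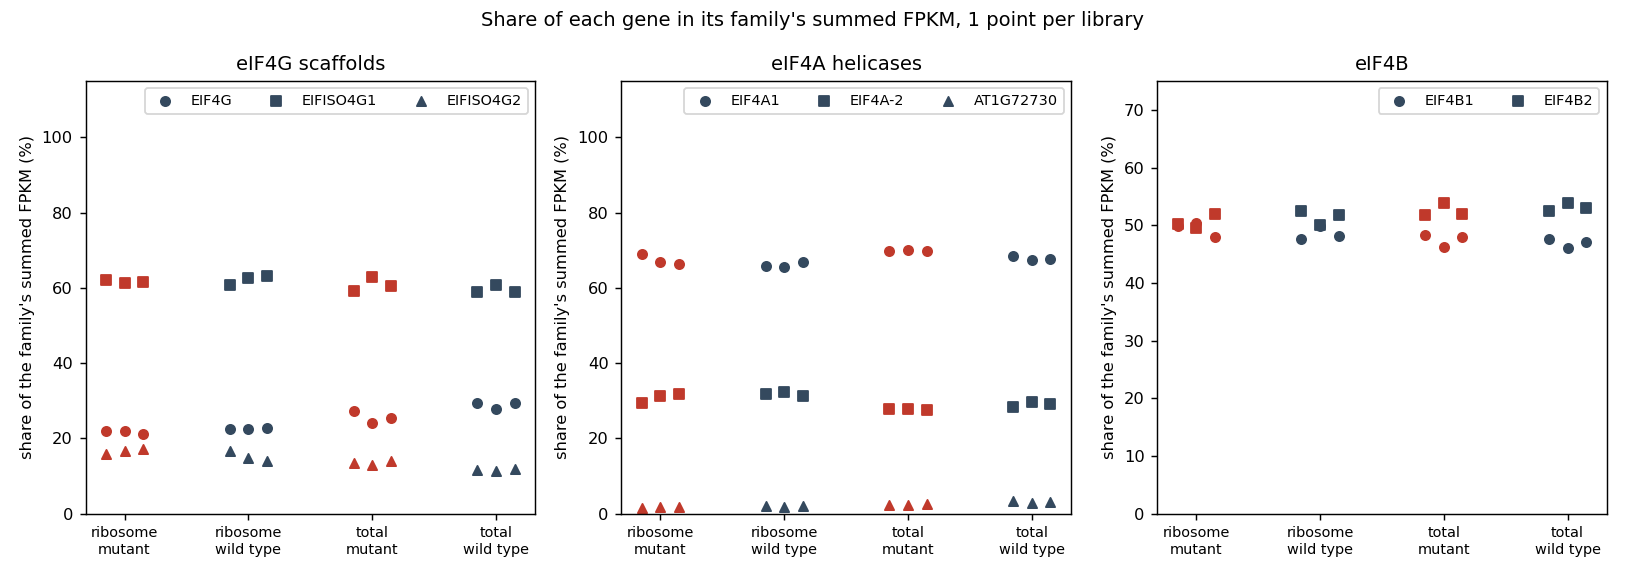
Share of each gene in the summed FPKM of its family (vertical axes, percent), 1 point per library, in the 4 groups. EIF4G holds 25.7% of scaffold FPKM in mutant total mRNA and 28.9% in wild type total mRNA, and EIF4A1 69.8% and 67.8% of helicase FPKM.

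The genes whose pattern was most like each member were found by Pearson's r of log2 TMM-scaled counts over the 12 libraries, among 8494 tested genes with a RefSeq name. These values describe likeness across libraries that share 2 genotypes and 2 kinds of mRNA. For EIF4G they were ORP2B (r = 0.997) and SUA (0.996), for EIFISO4G1 HB-1 and GC5 (0.990 each), and for EIFISO4G2 STIPL1 (0.988) and VAT1 (0.985). EIF4A1 was most like PHT3;1 (0.987) and UBP1B (0.979), and AT1G72730 like HA7 (0.990) and UBP20 (0.989). The likeness was lower for EIF4A-2, with MPK6 at 0.904, and for the eIF4B genes, with COX10 at 0.934 for EIF4B1 and E2F3 at 0.941 for EIF4B2. Among the 8 themselves, r ran from 0.368 for AT1G72730 and EIF4B1 to 0.969 for EIF4G and EIFISO4G1.

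Of 38 other genes of initiation that were listed, 33 were tested. In ribosome-bound mRNA 8 were higher and 4 lower in the mutant, with a median log2 change of 0.04, and in total mRNA 6 were higher and 2 lower, with a median of 0.02. Over all tested genes 15.4% were higher and 12% lower on ribosomes, and 10.4% higher and 6.54% lower in total mRNA. Both of the poly(A)-binding protein genes that were called, of 4 tested, were higher in both kinds: PAB4 by 0.27 on ribosomes and 0.74 in total mRNA, and PAB8 by 0.46 and 0.51. Their products hold the poly(A) tail and bind eIF4G. EIF4A-III, the DEAD-box helicase of the exon junction complex and a relative of the eIF4A genes, rose by 0.21 on ribosomes (edgeR adjusted p of 0.0157) and 0.20 in total mRNA (edgeR adjusted p of 0.0297), close in size to EIF4A1. EIF2 GAMMA, a subunit of the factor that brings the initiator tRNA, rose by 0.23 on ribosomes (edgeR adjusted p of 0.0078) and 0.19 in total mRNA (edgeR adjusted p of 0.0237). In the eIF4E family, EIF4E was lower by -2.69 on ribosomes and -1.60 in total mRNA. LSP1, which codes for the eIFiso4E partner of the eIFiso4G scaffolds, had log2 changes of 0.05 ± 0.071 and 0.02 ± 0.072 without a call. NCBP, a further cap-binding protein, rose by 0.62 in total mRNA (edgeR adjusted p of 0.0015) and had 0.21 on ribosomes without a call (edgeR adjusted p of 0.110). Of the 17 listed identifiers without a RefSeq name, 16 were tested, with 3 higher and 3 lower on ribosomes and 1 higher and 1 lower in total mRNA. The one called in both kinds, AT2G40290, was higher by 0.30 on ribosomes (edgeR adjusted p of 0.0043) and 0.23 in total mRNA (edgeR adjusted p of 0.0167).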

How the data were processed

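Poly(A) RNA libraries of whole seedlings were made with a stranded kit, from total RNA and from immunopurified ribosomes, per the labels' protocols. TopHat2 2.0.11 and the TAIR10 build are named in the submitters' processing notes. The counting program, its use of strand and its treatment of shared reads are not given in the sources used here. Each of the 12 deposited tables holds raw read counts per gene and FPKM values that the authors computed from them, and gene lengths were derived from the pair. A gene not listed in a table was given 0 counts (3308 genes, with at most 51 counts in the tables that list them). Names came from RefSeq (TAIR10.1), which matched 25710 of 25835 identifiers. No sequence or coordinate is printed.

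The counts were tested with edgeR 4.0.16 in R 4.3.3 by its quasi-likelihood test (glmQLFit, glmQLFTest) with TMM scaling, 1 mean per group and all 12 libraries in one fit (residual df 8). Genes with a mean FPKM under 1 were left out. P-values were Benjamini-Hochberg adjusted over the 19170 genes tested, with a threshold of 0.05. Shares were tested by exact permutation in SciPy 1.17.1 under Python 3.11.15. Alternatives were RLE scaling, library size alone, no filter, a mean FPKM of at least 5, DESeq2 1.42.0, limma 3.58.1 on log2(FPKM + 1) or log2(FPKM + 0.1), only the groups compared, the replicate block, a correction for gene length in each library, and each library left out. The fitting steps were tested on simulated data. The members, the other gene lists and the comparisons were chosen with earlier results of these data known. All 8 members are named. Other pathway genes are named if past the threshold in both kinds of mRNA (6 genes); LSP1, as the partner of the iso scaffolds, and NCBP were chosen after their values were seen.

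Replicates were distinct libraries: counts of libraries of one group differed by a chi-square of at least 6.73 per degree of freedom. Same-numbered libraries deviated together from their group means. Their correlations across genes were 0.228, 0.522 and 0.437 between genotypes in total mRNA and 0.193, 0.500 and 0.331 in ribosome-bound mRNA. Between kinds they were 0.630, 0.725 and 0.484 in the mutant and 0.324, 0.772 and 0.694 in wild type. The numbers were therefore taken to pair the samples in the log2 differences of pairs and in the replicate block. The main fit, with 1 mean per group, did not use this pairing. Replicate 1 of the mutant also correlated with replicate 3 of wild type, at 0.266 in total mRNA and 0.221 in ribosome-bound mRNA. Both genotypes' libraries of a kind carry the same 3 index names, and how libraries were pooled is not given. If the genotypes were sequenced in separate pools, pool and genotype cannot be told apart in any of the genotype changes. A part of the sequencing pool in the results was not tested.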

Additional observations from a re-analysis of the deposited data

How the results depend on the processing

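The calls of EIFISO4G2 and EIF4A1 in total mRNA rest on a small margin. The number of members called higher there (2) was 1 with RLE scaling, no filter, a mean FPKM of at least 5, DESeq2 or only the groups compared, 0 with library size alone or limma, and 0 to 2 without 1 library each. The number called lower (0) was 2 with library size alone, 4 with limma on log2(FPKM + 1) and 3 on log2(FPKM + 0.1). On ribosomes the 2 called higher became 1 with only the groups compared, 0 with the length correction, 1 with the replicate block and length correction, and 1 to 3 without 1 library each; the 0 called lower became 1 with either length correction. For ribosome-bound against total mRNA, the length correction with or without the replicate block gave 2 members higher in each genotype in place of 0, 2 lower in the mutant in place of 5 and 1 lower in wild type in place of 7. The replicate block, apart from EIF4B1 on ribosomes (0.17, adjusted p 0.0372), changed no other call of a member.

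Directions turned either for values near 0 or under the correction for gene length. EIFISO4G1 in total mRNA was -0.011 with RLE scaling or DESeq2, -0.0058 with only the groups compared, -0.11 with library size alone, -0.018 at a mean FPKM of at least 5, -0.12 and -0.13 with limma, and -0.021 to 0.040 without 1 library each. AT1G72730 on ribosomes was 0.00031 with no filter and -0.072 to 0.047 without 1 library each. The difference between kinds of mRNA for EIF4A1 was 0.036 with library size alone and 0.045 with limma, and for EIF4A-2 -0.064 to 0.050 without 1 library each. With the length correction the mutant change on ribosomes was -0.17 for EIF4G, -0.012 for EIFISO4G1 and -0.0030 for EIF4B2, and the difference between kinds was -0.12 for EIF4G, -0.061 for EIFISO4G1, -0.067 for EIFISO4G2 and -0.048 for EIF4A-2. Ribosome-bound against total mRNA turned to 0.19 in the mutant and 0.31 in wild type for EIF4G, 0.14 and 0.21 for EIFISO4G2, and 0.20 and 0.086 for EIF4B2. The replicate block with length correction gave -0.010 for EIFISO4G1 and -0.0014 for EIF4B2 on ribosomes, -0.059, -0.066 and -0.048 for the difference of EIFISO4G1, EIFISO4G2 and EIF4A-2, and the same rounded values for the rest. The log2 ratio of helicase to scaffold FPKM on ribosomes, mutant over wild type (0.00), was -0.13 to 0.072 without 1 library each, lowest without ribosome-bound wild type replicate 3. The cause of none of these was tested.

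Over all tested genes, calls in total mRNA (2001 higher, 1253 lower) were 979 and 3635 or 959 and 3418 with limma, 3063 and 3468 with the replicate block and length correction, and 1092 to 2086 higher and 555 to 1343 lower without 1 library. On ribosomes (2943 and 2293) they were 1816 or 1880 higher with limma, 1348 and 1362 with only the groups compared, 1634 higher with the length correction, 3731 lower with it and the replicate block, and 1684 to 2991 and 1330 to 2375 without 1 library. The test between kinds (321 and 451) gave 152 higher with no filter, 549 higher with DESeq2, 293 or 276 lower with limma, 4 and 129 with the length correction, 39 higher with it and the replicate block, and 24 to 723 and 137 to 884 without 1 library. For ribosome-bound against total mRNA the length correction gave 3615 higher in the mutant in place of 5570, and 4054 and 4137 in wild type in place of 6489 and 6446.

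With 3 libraries a group, the SE of the genotype changes of the 8 genes was 0.061 to 0.090 (log2), which sets the size of change that could be called; a gene that missed the threshold is not shown to be alike in the 2 genotypes.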
